A study of Rattus norvegicus with 862 samples.

Results

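The hearts of control rats that received corn oil by oral gavage were compared with the hearts of control rats that received water by oral gavage. No compound was given to either group. Of 862 heart arrays from 840 rats, 231 were vehicle controls, and 54 of these entered the comparison, with 26 corn oil hearts and 28 water hearts, each from its own animal. They were chosen as controls of both vehicles that shared the duration of dosing and the RNA extraction campaign, after 17 controls whose title and other labels disagree had been left out. All 54 animals were male Sprague Dawley rats of 6 to 8 weeks, dosed by gavage with vehicle alone, and their RNA came from 1 of 5 extraction campaigns. The corn oil hearts numbered 7 at 1 d, 8 at 3 d and 11 at 5 d, and the water hearts 9 at 1 d, 9 at 3 d and 10 at 5 d. Hearts were taken from 1 p.m. on after 1 d of dosing, and from 7 a.m. on after 3 and 5 d, for both vehicles.

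Corn oil is a triglyceride oil rich in the polyunsaturated linoleic acid, whereas water carries no energy, so a gavage of corn oil also delivers fat. The adult heart draws most of its energy from the mitochondrial oxidation of fatty acids, and fatty acids also serve as ligands of the peroxisome proliferator-activated receptors (PPARs), which switch on genes of fatty acid uptake and oxidation. In a compound study the vehicle controls are the reference against which each treated profile is read, and the comparison asks how far 2 such references differ in the heart.

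Each heart was measured on 1 Affymetrix whole-genome rat array, and levels are log2 values as deposited, so that a difference of 1.00 is a 2-fold change. The medians of the 54 arrays lay between 5.98 and 6.10. The correlation of an array with the mean array was 0.987 at the lowest, and none of the 54 arrays stood apart from the rest. The median level of 22 heart muscle genes was 13.5 to 13.8 in every heart. The median level of 18 liver genes was highest in water replicate 15 at 3 d, at 7.13 against 6.03 in the next heart, and that of 9 fat cell genes was highest in water replicate 19 at 5 d, at 6.73 against 5.54. The corn oil hearts came from 11 in-life studies and the water hearts from 16, with 23 studies in all. Of these, 4 studies held both vehicles, and they gave 4 pairs of hearts of both vehicles at a shared duration. In 1 study there were 2 pairs, at 3 d and at 5 d, and in another the vehicles had no shared duration. A study was thus largely tied to a vehicle. After the values were seen, 2 studies were singled out whose corn oil hearts lay apart from the other corn oil hearts in some gene groups. They are called the study of 4 corn oil hearts, all at 5 d, and the study of 5 corn oil hearts (2 at 1 d, 1 at 3 d and 2 at 5 d), and results that rest on them are given with and without them.

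Few genes separated the vehicles. Over 14217 genes, 0 differed by at least 1.5-fold at an adjusted p of 0.01 (limma, Benjamini-Hochberg over all genes), and 1 gene, Trim63, passed at an adjusted p of 0.01 with no minimum of fold-change, which is 0.00703% of the genes tested. At an unadjusted p under 0.05, 1227 genes (8.63%) differed, 827 higher with corn oil (5.82%) and 400 lower (2.81%), and 56% of all genes had a positive difference. This split depended on the scaling. After a new quantile normalization of the 54 arrays, 660 genes were higher and 718 lower at an unadjusted p under 0.05, 6910 of 14217 differences were positive, and the median of all genes moved from 0.0090 to -0.0020. The sizes were small. The median absolute difference was 0.042, and the 95% interval of the difference lay inside 1.5-fold in either direction for 14105 genes (99.2%). The root mean square difference between corn oil and water was 0.082, beside 0.075 between 3 and 1 d and 0.117 between 5 and 1 d. Array pairs of the same duration and vehicle from different studies correlated with a median of 0.9879, and pairs of the same duration and different vehicles with 0.9878. In 11 genes the difference reached 1.5-fold without passing the test. Atf3, Angptl4, Nr4a3, Fosb, Abra, Pdk4 and Nr4a1 had higher levels with corn oil, by 0.63 to 1.50, and Myl7, Alb, Cryl1 and Rup2 lower levels, by -0.64 to -0.89.

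Trim63 encodes MuRF1, a muscle-specific ubiquitin ligase that marks sarcomere proteins for breakdown, and its transcription is known to be driven by FoxO factors and by the glucocorticoid receptor. Its level was 8.95 at the lowest, 9.31 at the median and 9.67 at the highest in the 26 corn oil hearts. In the 28 water hearts it was 8.30, 8.97 and 9.57. The groups overlapped, but 25 of 26 corn oil hearts were above the median of water, and 10 water hearts were below the lowest corn oil heart. Trim63 was up-regulated with corn oil by 0.35 (SE 0.058, 95% interval 0.24 to 0.47, adjusted p = 0.0018 by limma), a fold-change of 1.28. The medians were 9.28, 9.31 and 9.36 with corn oil at 1, 3 and 5 d, and 9.02, 8.96 and 8.96 with water. The differences at the 3 durations were 0.24, 0.31 and 0.46, and the test of their inequality gave an adjusted p of 1.00.

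**Figure D1:**
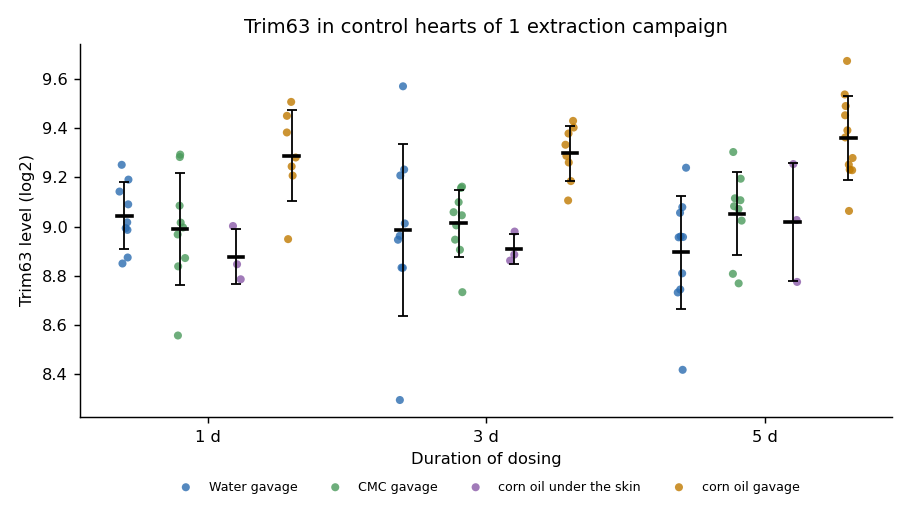
Level of Trim63 (log2) in single control hearts by duration of dosing, for water, CMC (carboxymethyl cellulose) and corn oil by gavage and corn oil under the skin, with thick bars at the mean and thin bars for the SD. The corn oil gavage hearts lie between 8.95 and 9.67 and the water hearts between 8.30 and 9.57, with 1 corn oil heart above every water heart.

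The Trim63 difference was next set against study and date. With study as a random block it was 0.34, at an adjusted p of 0.0104, just past the threshold. In the 4 pairs of hearts that shared a study and a duration it was 0.96, 0.49, 0.15 and -0.10, so that 3 of 4 pairs had the higher Trim63 level with corn oil. With the hybridisation date as a factor the difference was 0.30 (adjusted p = 0.087), and with the day of extraction 0.27 (adjusted p = 0.099). When each of the 23 studies was left out in turn it stayed between 0.32 and 0.37, and the adjusted p rose above 0.01 without 5 of them, to 0.015 without the study of 4 corn oil hearts, 0.035 without the study of 5, 0.013 without a study of 6 corn oil hearts, 0.033 without a study of 6 water hearts and 0.012 without one of 3 water hearts.

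Gavage controls of other strata had no partner of the other vehicle at the same duration and campaign, so vehicle, duration and campaign cannot be told apart there. In 9 corn oil hearts of another campaign, dosed for 1, 3 and 5 d, Trim63 lay between 9.31 and 9.72. In 3 corn oil hearts at 0.25 d it was 8.68 to 8.96, and in 3 at 7 d 8.94 to 8.99, which is inside the range of water. Water hearts of 3 other campaigns spanned 7.37 to 9.50.

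The 250 bases upstream of the Trim63 start site are printed because this gene alone passed the test and its known regulators have simple motifs. They lie at chr5:151816986-151817235 on the plus strand (RefSeq, GRCr8), and capitals mark a glucocorticoid receptor motif (the half-sites GNACA and TGTNC with 3 bases between them) followed by a FoxO motif (GTAAACA, here on the opposite strand).
Trim63 promoter: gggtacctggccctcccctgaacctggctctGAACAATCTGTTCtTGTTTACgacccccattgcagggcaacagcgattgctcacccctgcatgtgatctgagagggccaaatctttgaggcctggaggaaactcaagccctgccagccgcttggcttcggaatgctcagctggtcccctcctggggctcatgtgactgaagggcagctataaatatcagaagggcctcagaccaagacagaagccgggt

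Both strands were searched, and the motifs do not overlap each other. The glucocorticoid receptor motif occurs in 0.373% of 33469 rat promoters of this length and the FoxO motif in 3.21%. Among 25 named genes with a promoter entry, Trim63 was the single one with either motif. Both motifs were chosen because their factors are known regulators of Trim63, so this count cannot set it apart from the other genes. The direct repeat bound by PPARs (AGGTCA, repeated after 1 base) occurs in 0.0508% of all promoters and in 0 of the 25. A match is a description of the letters in this window and says nothing of binding in these hearts.

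Below the threshold, the 9 further genes of smallest p with higher levels in corn oil hearts had adjusted p values of 0.052 to 0.073. Among them, 2 belong to mitochondrial fatty acid metabolism. Acot2, the mitochondrial thioesterase that releases free fatty acid from acyl-CoA, was at 10.23, 10.82 and 11.55 with corn oil (lowest, median, highest) and at 9.98, 10.59 and 10.91 with water. The ranges overlapped, with 8 corn oil hearts above every water heart, among them all hearts of the study of 4 corn oil hearts. The difference was 0.32 (SE 0.068, adjusted p = 0.052), and its 3 probe sets gave 0.32 to 0.39. Eci1, the isomerase that prepares unsaturated fatty acids for oxidation, was at 11.19, 11.64 and 12.21 with corn oil and at 10.94, 11.42 and 11.73 with water. Here 11 corn oil hearts were above every water heart, again with all hearts of the study of 4 among them. The difference was 0.27 (SE 0.059, adjusted p = 0.052), while a second, dimmer Eci1 probe set had -0.12. With the hybridisation date as a random block, with the extraction day as a factor, or with all gavage controls sharing 1 estimate of the spread, both Acot2 and Eci1 passed at an adjusted p of 0.01.

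Slc6a8, the creatine transporter, and Retreg1, a receptor for the turnover of the endoplasmic reticulum, had differences of 0.18 and 0.24. For Slc6a8, 11 corn oil hearts were above every water heart, and for Retreg1 10, including all hearts of the study of 4 corn oil hearts. H1f2, a linker histone, had 0.33, Rab11fip5, an effector of vesicle recycling, 0.24, and Pde2a, a phosphodiesterase that cyclic GMP stimulates, 0.18. At 5 d H1f2 had 0.42 with the study of 4 corn oil hearts and 0.19 without it. For Rab11fip5 these differences were 0.31 and 0.12. Aplp2 and Zfp136 both had 0.19, with 0 corn oil hearts above every water heart. All 9 had a positive difference in each setting in which they were tested.

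The 10 genes of smallest p with lower levels had adjusted p values of 0.072 to 0.151. LOC102553868, an uncharacterised locus, was at 8.43, 10.14 and 10.97 with corn oil and at 9.54, 10.67 and 11.20 with water, a difference of -0.56. Gngt2, a G protein gamma subunit, had -0.40, Nusap1, a protein of the mitotic spindle, -0.36, and Parp4, the ADP-ribosyltransferase of vault particles, -0.32. Levels of Parp4 and LOC102553868 were above the water median in 1 corn oil heart each. At 5 d the difference of LOC102553868 was -0.87 with the study of 4 corn oil hearts and -0.43 without it. For Parp4 it was -0.34 and -0.36. Nxnl2, Slc16a6, Prcd, Sema3c, Osbpl7 and Jpt1 followed, with differences between -0.15 and -0.26, and these 10 kept a negative sign in each setting in which they were tested.

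**Figure D2:**
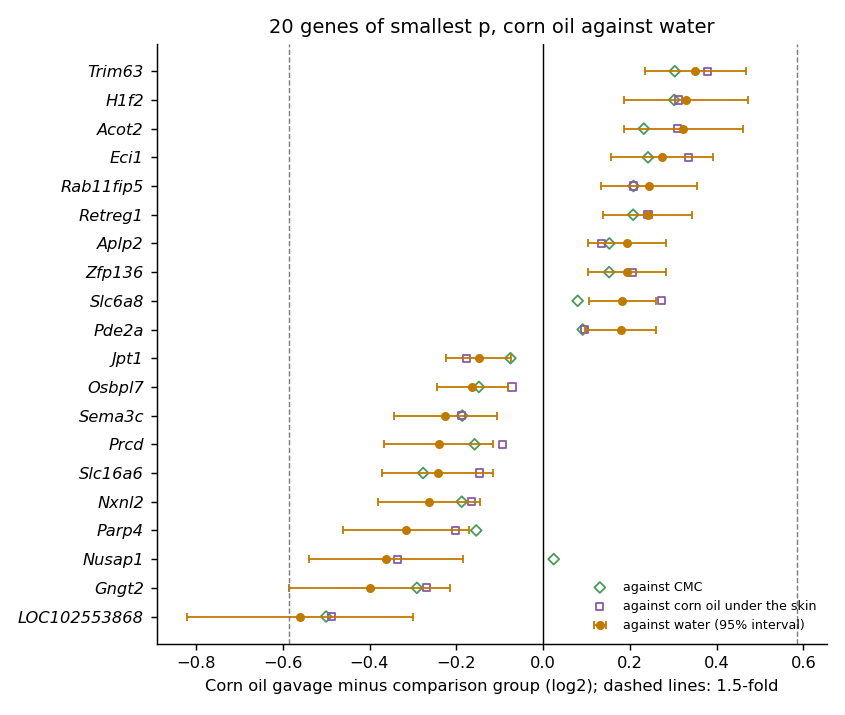
Difference in level (log2, horizontal axis) of corn oil gavage from water gavage (filled circles, bars for the 95% interval), CMC gavage (diamonds) and corn oil under the skin (squares). Shown are the 20 genes of smallest p against water, with dashed lines at 1.5-fold. The 10 higher genes lie between 0.18 and 0.35 and the 10 lower genes between -0.56 and -0.15 against water, and against CMC only Nusap1 is on the other side of 0.

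Genes of fatty acid oxidation differed by small amounts, most of them with a positive sign. Of 23 measured genes of mitochondrial fatty acid oxidation, 9 were higher at an unadjusted p under 0.05 and 0 lower, against 5.82% and 2.81% of all genes, and 0 passed at an adjusted p of 0.01. The difference was positive in 21 of the 23, with a median of 0.09, beside 0.0090 over all genes. After Eci1 came Decr1, the reductase needed for polyunsaturated fatty acids, with 0.26 (SE 0.065), and Hadha and Hadh, enzymes of the oxidation cycle itself, with 0.14 and 0.10. Acadl, Acadm and Acadvl, the acyl-CoA dehydrogenases of different chain lengths, Etfdh, which passes their electrons on, and Cpt1b, which lets long chains into the mitochondrion, had 0.06 to 0.10. By duration, 10 of the 23 were positive at 1 d (median -0.01), 20 at 3 d (0.09) and 22 at 5 d (0.16), beside 53.1%, 57.2% and 52.3% of all genes, and no difference between the durations was tested for the list.

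The median level of the 23 oxidation genes was 11.22, 11.56 and 11.87 in the corn oil hearts (lowest, median, highest) and 11.05, 11.46 and 11.65 in the water hearts. In the study of 4 corn oil hearts it was 11.66 to 11.87, above every water heart, and in the other corn oil hearts outside both singled-out studies it was 11.22 to 11.81. After quantile normalization 3 genes of the list were higher and 0 lower at an unadjusted p under 0.05, with a median of 0.06 and 19 positive. When the study of 4 was left out, 3 genes of the list were higher and 0 lower at an unadjusted p under 0.05, and the median difference was 0.05, with 20 positive, where 4.37% of all genes were higher. Without the study of 5 corn oil hearts it was 7 higher and 0 lower, where 9.55% of all genes were higher. Without both studies it was 2 higher and 0 lower, where 8.08% of all genes were higher, so the share of higher genes was then near that of all genes. The median was 0.03, beside 0.014 over all genes, and 18 of the 23 stayed positive, beside 8196 of 14217 genes.

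Known PPAR target genes of the heart followed the same order of durations. Of 23 measured, 8 were higher and 1, Vnn1, lower at an unadjusted p under 0.05, beside 5.82% and 2.81% of all genes. In the list 20 were positive, beside 56% of all genes, and the median was 0.12. The medians at 1, 3 and 5 d were -0.01, 0.09 and 0.21. Pdk4, the kinase that shuts off pyruvate dehydrogenase and so spares glucose, was at 10.08, 11.68 and 13.58 with corn oil and at 9.88, 10.64 and 12.32 with water. The ranges overlapped widely, with 6 corn oil hearts above every water heart, and the difference was 0.68 (SE 0.208, adjusted p = 0.283). Angptl4, the secreted inhibitor of lipoprotein lipase, was at 5.70, 6.82 and 11.25 with corn oil and at 5.40, 6.02 and 8.43 with water, a difference of 1.06 (SE 0.329, adjusted p = 0.294). Txnip, which restrains glucose uptake, had 0.49, Acot1, the cytosolic relative of Acot2, 0.47, and Cd36, the fatty acid translocase, 0.21. When the study of 4 corn oil hearts was left out, Angptl4 had 0.47, Pdk4 0.43, Acot1 0.19 and Cd36 0.11. Without that study the list gave 6 higher and 2 lower with a median of 0.05, beside 4.37% and 1.98% of all genes. Without both singled-out studies it gave 5 higher and 1 lower with a median of 0.05, beside 8.08% and 3.24%. After quantile normalization it gave 7 higher and 1 lower with a median of 0.09, beside 660 and 718 of 14217 genes.

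All genes gave 5.82% higher and 2.81% lower at an unadjusted p under 0.05, the background for the next lists. Fatty acid uptake and binding gave 6 higher and 1 lower of 19 genes, led by Gpihbp1, which anchors lipoprotein lipase on capillaries (0.38), Angptl4 and Fabp4 (0.16). The list shares Angptl4 and Cd36 with the PPAR targets. It was 2 higher and 1 lower without the study of 4 corn oil hearts, beside 4.37% and 1.98% of all genes. Gpihbp1 then had 0.20 and Fabp4 0.085. Lipid droplet and triglyceride genes gave 4 higher and 1 lower of 25, with a median of 0.03, and the lipases Lipe and Pnpla2 had 0.21 and 0.27. These lipases had 0.067 and 0.055 when the study of 4 was left out, and the list gave 1 higher and 2 lower with a median of -0.03. Fatty acid synthesis gave 3 and 1 of 21 (median 0.01, and 0 and 1 without the study of 4) and cholesterol synthesis and uptake 1 and 0 of 19 (median -0.0066). After quantile normalization the medians of the lipid droplet and fatty acid synthesis lists were -0.0025 and -0.0030, so neither list has a settled direction. Glucose uptake and use gave 5 and 0 of 24, with Txnip and Pdk4 among the 5 beside Insr, the insulin receptor (0.27), Pfkfb2 (0.32) and Irs2. This list gave 6 and 0 without the study of 4, where 4.37% of all genes were higher. It gave 5 and 0 without both singled-out studies, where 8.08% were higher, and 4 and 1 after quantile normalization. Of 5 genes of ketone body use, 0 differed at an unadjusted p under 0.05.

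**Figure D3:**
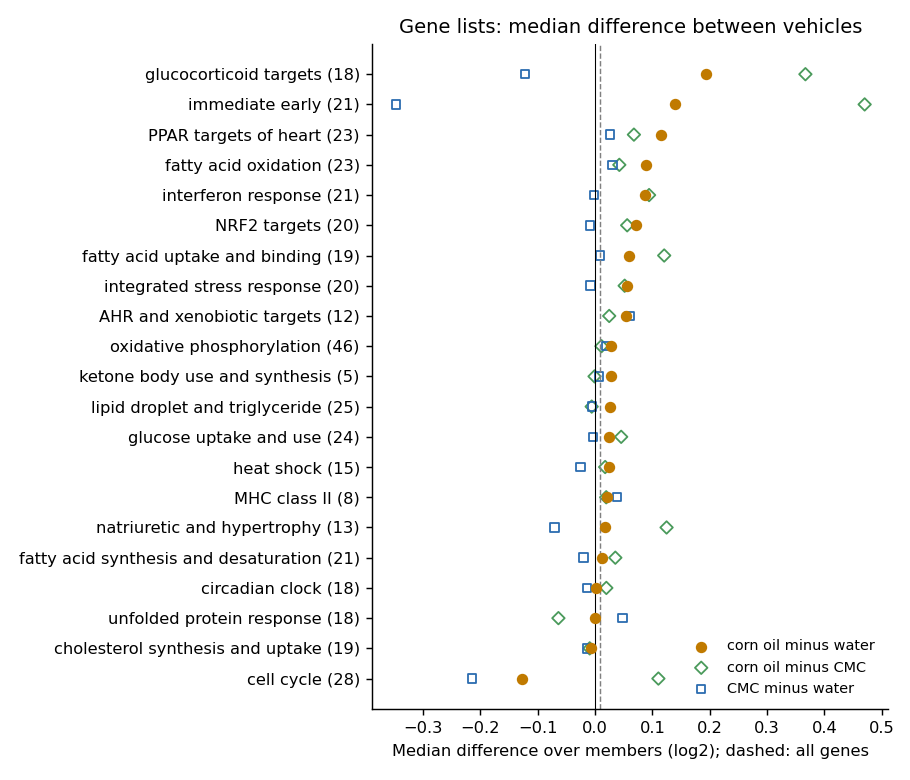
Median difference (log2) over the measured members of each pathway list, markers of cell types not included, for corn oil minus water (filled circles), corn oil minus CMC (diamonds) and CMC minus water (squares), with the number of measured genes in brackets and the dashed line at the median of all genes for corn oil minus water. For corn oil minus water, the glucocorticoid (0.19), immediate early (0.14), PPAR (0.12) and fatty acid oxidation (0.09) lists lie farthest right of the lists plotted and the cell cycle list (-0.13) farthest left.

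The 5 d hearts held the largest differences of the lipid genes. Within 5 d, 5 genes passed at an adjusted p of 0.01 (limma), which is 0.0352% of all genes. Angptl4 was up-regulated by 2.50 (SE 0.472), Abra, an actin-binding activator of serum response factor signalling, by 1.78 (SE 0.314), Pdk4 by 1.60 (SE 0.295) and Retreg1 by 0.41 (SE 0.077), and Fzd2, a Wnt receptor, was down-regulated by 0.55 on the log2 scale (SE 0.103). Adjusted p values were 0.0083 to 0.0085. At 1 d and at 3 d 0 genes passed, with 2.47% and 4.46% of genes at an unadjusted p under 0.05, beside 8.53% at 5 d. The test of whether the vehicle difference changed between durations called 0 genes, with 456 (3.21%) at an unadjusted p under 0.05 and a smallest adjusted p of 0.386. A difference between the durations was thus not shown for any gene.

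The calls at 5 d rested on 1 study. Angptl4 was 11.01 to 11.25 in the 4 corn oil hearts of that study, hybridised on 4 dates, 6.94 to 8.81 in the 7 other corn oil hearts at 5 d, and 5.40 to 8.10 in the 10 water hearts. Pdk4 was 13.34 to 13.58, 11.61 to 12.90 and 9.95 to 12.32 in the same order, and Acot2 11.16 to 11.55, 10.23 to 11.07 and 10.21 to 10.80. The 4 hearts were thus above all others at 5 d for each of these genes, whereas the other corn oil hearts overlapped with water. Without this study 0 genes passed at 5 d. The difference of Angptl4 was then 1.13 (SE 0.354), of Pdk4 1.10 (SE 0.307), of Abra 1.40 (SE 0.338), of Fzd2 -0.43, of Retreg1 0.25, of Acot2 0.31 and of Eci1 0.31. Adjusted p values for these were 0.391 or more. The median level of the PPAR list was 11.01 to 11.16 in the 4 hearts, 9.97 to 10.69 in the 17 corn oil hearts outside both singled-out studies and 9.81 to 10.67 in water. With study as a random block 0 genes passed at 5 d, and leaving out each study in turn gave 0 to 16.

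**Figure D4:**
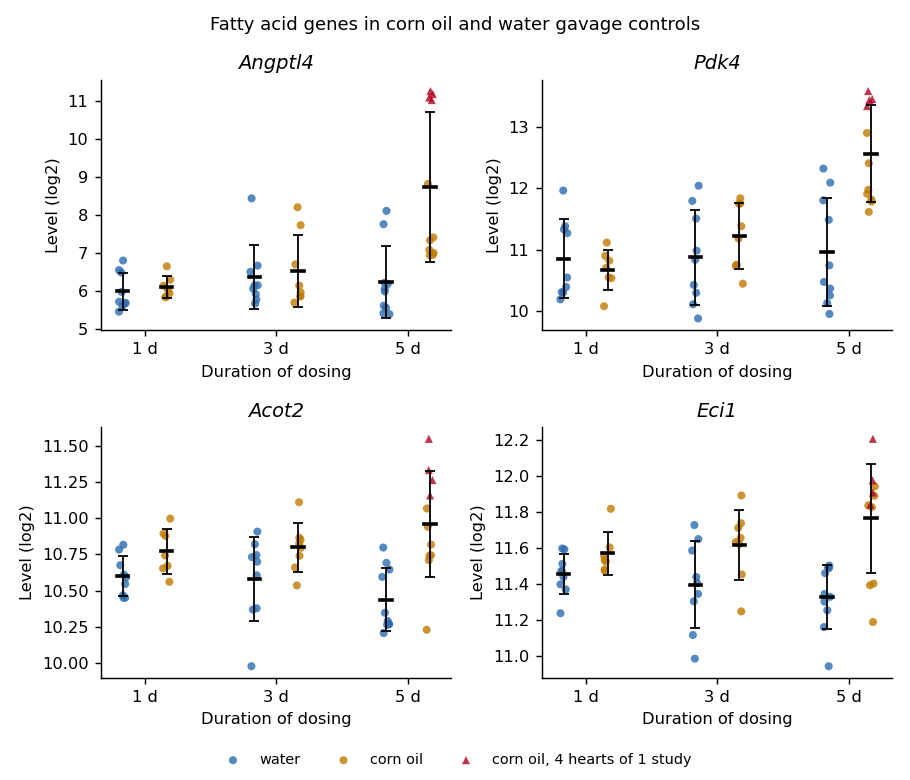
Levels (log2, vertical axes) of single fatty acid genes in each corn oil and water gavage heart at 1, 3 and 5 d, with triangles for the study of 4 corn oil hearts, thick bars at the mean and thin bars for the SD. At 5 d these 4 hearts lie above every other heart for Angptl4 (11.01 to 11.25) and Pdk4 (13.34 to 13.58), while the remaining hearts of both vehicles overlap.

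Trim63 stood apart from this pattern. At 5 d it was 9.23 to 9.45 in the 4 hearts, 9.06 to 9.67 in the other corn oil hearts and 8.42 to 9.24 in water. The difference at 5 d was 0.46 with the study and 0.48 without it. Pde2a was likewise close with and without the study, at 0.31 and 0.27.

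Oxidative phosphorylation genes had small differences in 1 direction. Of 46 measured subunits, 39 were positive, 10 higher and 1 lower at an unadjusted p under 0.05, with a median of 0.028. Over all genes 56% were positive, 5.82% higher and 2.81% lower. Cox6c and Cox4i1, subunits of cytochrome c oxidase, had 0.07 and 0.06, and Atp5f1a of ATP synthase 0.05, while Cox7a1, the muscle form of another oxidase subunit, had -0.22. The list median was 12.77 to 12.96 in corn oil hearts and 12.63 to 12.97 in water hearts, which overlapped. After quantile normalization 20 of the 46 were positive, 3 higher and 2 lower, with a median of -0.0021. Of 14217 genes 6910 were then positive, 660 higher and 718 lower. The direction of the oxidative phosphorylation list thus depends on the scaling.

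At an unadjusted p under 0.05, 5.82% of all genes were higher and 2.81% lower, and 56% had a positive difference. Glucocorticoid target genes gave 5 higher and 0 lower of 18, with a median of 0.19 and 17 positive. Pdk4 and Angptl4 belong to this list too. The others of smallest p were Cdkn1a, the inhibitor of cyclin-dependent kinases (0.32), and Klf9, a transcription factor (0.24). By duration the medians were 0.03, 0.10 and 0.46. Without the study of 4 corn oil hearts 2 were higher and 0 lower (Cdkn1a 0.21, Klf9 0.15), where 4.37% of all genes were higher. Without the study of 5 it was 8 and 0 with a median of 0.26 (9.55% of all genes higher). Without both it was 7 and 0 with a median of 0.25 (8.08% of all genes higher). Within the 4 pairs that shared a study and a duration the median was 0.01, with 9 of 18 positive. Immediate early genes, which answer to handling and to stimuli within minutes, had a median of 0.14 with 20 of 21 positive. Of these, 1 gene, Atf3, was higher at an unadjusted p under 0.05. At 1, 3 and 5 d the medians of this list were 0.04, 0.48 and -0.01, with 12, 20 and 10 of 21 positive. Without the study of 4 corn oil hearts 4 were higher, without the study of 5 it was 11 with a median of 0.26, and without both 12 with a median of 0.38, beside 4.37%, 9.55% and 8.08% of all genes. Within the 4 pairs that shared a study and a duration 16 were higher, with a median of 1.23, beside 375 of 14217 genes. That fit rests on 4 pairs of single hearts. Atf3 spanned 4.18 to 10.82 in corn oil hearts and 4.20 to 10.39 in water hearts, with medians of 8.44 and 5.96, and the difference was 1.50 (SE 0.477, adjusted p = 0.294). The spread within each vehicle was thus far larger than the difference between them. For the same reason Nr4a3 (0.99, SE 0.577) and Egr2 (0.44, SE 0.252) have intervals that include 0.

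Cell cycle genes mostly had negative differences, which rested in large part on the study of 5 corn oil hearts. Of 28 measured, 0 were higher and 11 lower at an unadjusted p under 0.05, beside 5.82% and 2.81% of all genes. In the list 27 were negative, and the median was -0.13. After quantile normalization the count was 10 lower, beside 718 of 14217 genes. In whole tissue, fewer cells of a type and less RNA per cell cannot be told apart. Mki67, the proliferation antigen, had -0.47 (SE 0.168), Top2a, the topoisomerase of dividing cells, -0.44 (SE 0.131), and Ube2c, the ubiquitin-conjugating enzyme of mitotic exit, -0.36 (SE 0.095). Top2a was at 5.27, 6.08 and 7.13 with corn oil (lowest, median, highest) and at 5.79, 6.55 and 7.50 with water. The medians over the list were -0.25, -0.05 and -0.10 at 1, 3 and 5 d.

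The list median of the 28 genes was 5.36 to 5.55 in the study of 5 corn oil hearts, below every water heart, and 5.34 to 6.12 in the study of 4. In the other 17 corn oil hearts it was 5.72 to 6.44, beside 5.74 to 6.60 in water. When the study of 5 was left out, 5 genes were lower, where 4.39% of all genes were, and the median difference was -0.05. Mki67 then had -0.24, Top2a -0.28 and Ube2c -0.23. Without both studies 3 were lower and the median was -0.02 with 12 of 28 positive, where 3.24% of all genes were lower. The direction of this list in the remaining hearts was thus not clear. CMC hearts had a list median of 5.36 to 6.45, with a middle value of 5.75 beside 5.93 for corn oil and 6.07 for water.

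**Figure D5:**
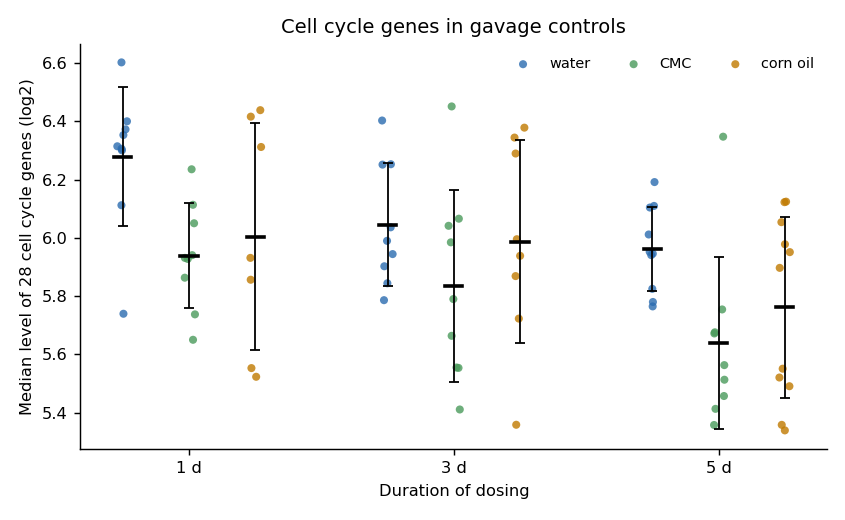
Median level (log2) of 28 cell cycle genes in each gavage control heart at 1, 3 and 5 d of dosing, by vehicle, with thick bars at the mean and thin bars for the SD. The lowest water heart is at 5.74, while corn oil hearts reach down to 5.34 and CMC hearts to 5.36.

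NRF2 target genes gave 5 higher and 0 lower of 20 (median 0.07), beside 5.82% and 2.81% of all genes. Gclc, the limiting enzyme of glutathione synthesis, was at 0.22, Srxn1, which restores peroxiredoxins, at 0.45, and Hmox1, the inducible heme oxygenase, at 0.38. Without the study of 4 corn oil hearts 2 were higher and 0 lower with a median of 0.03, where 4.37% of all genes were higher. Srxn1 then had 0.25 and Hmox1 0.18. The integrated stress response gave 4 and 0 of 20, the heat shock list 3 and 1 of 15, and the interferon response 2 and 0 of 21. In the same order these gave 2 and 0, 1 and 0, and 0 and 0 without the study of 4, beside 4.37% and 1.98% of all genes. Without the study of 5 the interferon response gave 6 and 0, where 9.55% of all genes were higher. Of the circadian clock (18 genes) and of the targets of the aryl hydrocarbon receptor (12 genes), 0 differed at an unadjusted p under 0.05. The natriuretic and hypertrophy list gave 1 and 0 of 13 and the unfolded protein response 1 and 0 of 18.

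Markers of some other cell types had medians as large as those of the pathway lists. All 10 macrophage genes were positive, 3 of them at an unadjusted p under 0.05 (C1qa 0.16, Adgre1 0.14 and Cd163 0.22). Of all genes 56% were positive and 5.82% higher at that p. After quantile normalization 9 macrophage genes were positive and 1 passed that p, where 6910 of 14217 genes were positive and 660 higher. The list median was 7.23 to 8.53 with corn oil and 7.48 to 8.34 with water. Their part in the other results was not tested. Liver genes had a median difference of -0.13, with 15 of 18 negative and 0 at an unadjusted p under 0.05. Within the 4 pairs of a shared study and duration the median was 0.16, with 14 of 18 positive. Their list median was 4.73 to 5.42 in corn oil hearts and 4.64 to 7.13 in water hearts. Alb, which encodes albumin, was at 4.43 to 9.32 with corn oil and at 4.43 to 12.69 with water. Of 9 fat cell genes, 2 (Fabp4 and Lipe) were higher and 0 lower, with a median of -0.05, and without the study of 4 corn oil hearts 0 were higher. Smooth muscle genes had a median of -0.11. The lymphocyte, skeletal muscle and brown fat lists had 1 lower gene each (Cd79b, Mylk2 and Cox7a1). Among the markers of endothelial cells, fibroblasts, smooth muscle, neutrophils, red blood cells, mesothelium and kidney, 0 genes differed at an unadjusted p under 0.05. Without the 2 water hearts of highest liver and fat cell levels, Trim63 had 0.34 (adjusted p = 0.0084) and the oxidation list 8 higher and 0 lower.

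A further aqueous vehicle, CMC (carboxymethyl cellulose, a thickener that is not digested) by gavage, was available in 27 hearts of the same durations and campaign. The corn oil hearts are shared with the comparison against water. Trim63 was up-regulated against CMC by 0.30 (SE 0.055, adjusted p = 0.0070), and it was the single gene called of 14217 (0.00703%), with 2184 (15.4%) at an unadjusted p under 0.05. CMC minus water gave 0.05 for Trim63 (SE 0.054), and there the single gene called was Ube2c, down-regulated by 0.51 on the log2 scale (adjusted p = 0.0087), with 562 genes (3.95%) at an unadjusted p under 0.05. With study as a random block both calls were lost and 0 genes passed in either comparison, and without the 1 CMC array that stood apart 0 genes passed against CMC. Of the oxidation genes, 5 were higher and 0 lower in corn oil than in CMC hearts, with a median of 0.04, and CMC minus water had a median of 0.03.

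Some lists differed in their order among the 3 vehicles. The immediate early genes had a median difference of 0.47 against CMC, with 15 of 21 higher at an unadjusted p under 0.05 beside 9.4% of all genes, where 5.96% were lower, and of -0.35 for CMC minus water. The cell cycle genes had 0.11 against CMC and -0.21 for CMC minus water, with 0 of 28 positive in the latter, beside 51.6% of all genes. For the glucocorticoid targets the values were 0.37 and -0.12. Over the durations together, corn oil was thus highest and CMC lowest in the immediate early and glucocorticoid lists. In the cell cycle list water was highest and CMC lowest. The order of corn oil and water changed with duration. The immediate early level of the median heart was higher in water at 1 d (8.08 against 7.73) and 5 d (9.18 against 9.04), and lower at 3 d (8.76 against 9.41). The glucocorticoid level was higher in water at 1 d (8.56 against 8.35) and lower at 3 and 5 d.

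The route was compared between the 26 corn oil hearts by gavage and 9 hearts of rats that received corn oil under the skin, at the same durations and campaign. Trim63 was 8.78 to 9.25 in the subcutaneous hearts, against 8.95 to 9.67 by gavage. It was up-regulated by gavage by 0.38 (SE 0.061, adjusted p = 0.0029). Coa8, a protein of cytochrome c oxidase assembly, was up-regulated by 0.34 (SE 0.053, adjusted p = 0.0029). These were the 2 genes called (0.0141%), with 1416 (9.96%) at an unadjusted p under 0.05. Coa8 lay between 9.34 and 9.81 by gavage and between 9.07 and 9.43 under the skin, but it differed by 0.08 (adjusted p = 0.697) between corn oil and water by gavage.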

How the data were processed

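The authors deposited log2 values, 1 per probe set and array, which the submitters' processing notes credit to RMA, with no version in the sources used here. RMA corrects the background, normalizes arrays together and summarises probes, so values compare arrays and not different genes. Values ran from 3.15 to 14.8 and were used as deposited. Precision here is set by how many arrays there are, since arrays have no depth. Vehicle, route, dose and duration came from the labels. Of 31099 probe sets, 57 controls were left out, 20832 had 1 symbol, 436 several and 9831 none; 20826 were used, of which 20812 matched the RefSeq table of rat genes. For 4525 of the 14217 genes there were several probe sets, and the one with the highest mean stood for the gene.

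Corn oil and water controls were fitted with lmFit and eBayes of limma 3.58.1 (R 4.3.3), duration and extraction campaign forming a single factor, and p-values were adjusted by Benjamini-Hochberg over all genes. A gene was called at an adjusted p of 0.01, as in the study's methods, with a minimum of 1.5-fold or none. An interaction of vehicle and duration, and fits with CMC and with subcutaneous corn oil hearts, were added. p-values measure the spread between animals. Animals of 1 study may be alike, which the study block allows for only in part, with 1 correlation (0.074) shared by all genes. A gene whose levels follow the study more closely is not fully covered. With study means Trim63 had an adjusted p of 0.318 (limma). The fit was tested on simulated data. An array stood apart if it correlated under 0.95 with the mean array or had a liver list median over 8 or a fat cell list median over 7. Named genes are the 10 of smallest p in each direction, since fewer than 10 were called, up to 4 members of smallest p per list, and called genes; Acadl, Acadm, Acadvl, Etfdh, Cpt1b, Vnn1, Irs2, Cd79b and Mylk2 complete their lists' counts, and the genes past 1.5-fold, Coa8 and the genes called at 5 d, were named after their values were seen. The members and lists were chosen with earlier results of these data known. Left out were 17 controls with disagreeing labels, 10 of them labelled or titled corn oil or water gavage, and 15 corn oil and 36 water gavage controls of other strata. Alternatives changed study, date, extraction day, probe set, filter, normalization, test and arrays. Motifs and figures were made in Python 3.11.15 with pandas 2.3.3 and matplotlib 3.10.9.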

Additional observations from a re-analysis of the deposited data

Results flagged for a closer look

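Within a vehicle and duration, 24 values lay far from the other hearts of their group, of 330 groups of 4 to 10 hearts tested, which is 7.27%, where chance gives about 1 in 20. The 11 corn oil hearts at 5 d were not tested for this. Several of these values came from single water hearts. At 1 d, 1 water heart had the highest level of Alb (10.78), Rup2 (8.70), Fosb (9.37) and the liver gene list (6.03). At 5 d, 1 water heart had the highest median of the atrial muscle list (12.67) and of the fat cell list (6.73).

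Other water hearts lay apart in 1 gene or list each. At 1 d these were Cryl1 (8.25), Ube2c (6.12) and the fatty acid oxidation list (11.25), each lower than the rest. At 3 d Angptl4 (8.43) and Aplp2 (11.00) were higher, and LOC102553868 (9.84) and the fatty acid oxidation list (11.05) lower. At 5 d Srxn1 (7.71) was higher, and Cox4i1 (13.70) and Hadh (11.95) lower.

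In corn oil hearts, 1 heart at 3 d was highest in Gpihbp1 (9.64), Hmox1 (8.49) and Retreg1 (11.98), and others at 3 d in Zfp136 (4.88, highest) and Cryl1 (8.44, lowest). At 1 d, 1 heart was lowest in Aplp2 (10.32) and highest in Eci1 (11.82), and another highest in Hmox1 (8.37).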

How the results depend on the processing

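Trim63 had a positive difference in every setting, of 0.27 to 0.40, but did not always pass at an adjusted p of 0.01. In place of 1 gene, 0 genes passed with study as a random block (Trim63 0.34), with study means (0.33) and within the 4 pairs of a shared study and duration (0.38). The same held with the hybridisation date as a factor (0.30), with that date and the study block together (0.29), without 1 d (0.40) and without 5 d (0.28). With the extraction day as a factor 2 genes passed without Trim63 (0.27), with the date as a random block 4 and with all gavage controls in the fit 6. Leaving out 1 study at a time gave 0 to 1 genes, and 0 genes at 1.5-fold throughout (lowest 0, highest 0), with Trim63 between 0.32 and 0.37. The share of genes at an unadjusted p under 0.05 was 4.14% within studies, 4.87% without 5 d, and 6.35% to 13.9% when 1 study was left out, the last without the study of 5 corn oil hearts.

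With the study block 0 genes passed against CMC, 0 for CMC minus water and 0 at 5 d, where leaving out 1 study gave 0 to 16. Without the 1 CMC array that stood apart, 0 passed against CMC. Leaving out 1 subcutaneous heart gave 0 to 3 genes for the route.

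Some values that had not passed the test changed sign, and the cause was not tested. Within studies these were Pdk4 (-0.32), Gpihbp1 (-0.021), Fabp4 (-0.062), Cd36 (-0.032), Klf9 (-0.17), Nr4a3 (-0.69), C1qa (-0.17), Cd163 (-0.056), Srxn1 (-0.018), Hmox1 (-0.45), Coa8 (-0.11), Pnpla2 (-0.19), Alb (2.54), Rup2 (2.62) and the medians of the macrophage (-0.18), liver (0.16), interferon (-0.072), lipid droplet (-0.033), fatty acid synthesis (-0.023) and NRF2 (-0.017) lists, with smaller lists not named here, and the circadian list, with 0 genes at an unadjusted p under 0.05 in the full comparison, gave 5 higher and 5 lower. With the date as a factor they were Fosb (-0.034) and the immediate early median (-0.030), and with the extraction day Fosb (-0.057), Nr4a1 (-0.019) and the immediate early median (-0.019). Quantile normalization turned the oxidative phosphorylation median (-0.0021), and leaving out 5 d turned Nr4a3 (-0.081), Srxn1 (-0.016) and Fzd2 (0.0035). Slc6a8, Acot2, Eci1, Retreg1, H1f2 and Rab11fip5 passed at an adjusted p of 0.01 in up to 3 settings.

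No paired analysis was possible because the replicate numbers were given in accession order and pair no hearts; the 4 pairs that share a study and duration are the fit within studies. None of the 54 arrays stood apart, so leaving such arrays out changed nothing for corn oil against water or its interaction. The date with the study block, the 2 water hearts high in liver and fat cell genes, the subcutaneous hearts left out in turn, the studies left out at 5 d, its study block, and the list counts without studies were chosen after seeing the data.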

Other observations

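Angptl4 and Pdk4 were also high in some control hearts that received no corn oil. Their Angptl4 range overlapped that of the study of 4 corn oil hearts, while their Pdk4 range lay below it. In 3 control hearts of rats that received saline intraperitoneally for 5 d, in another study of the same campaign, Angptl4 was 10.71 to 11.18 and Pdk4 12.84 to 13.24, beside 11.01 to 11.25 and 13.34 to 13.58 in the 4 corn oil hearts. In the same 3 saline hearts Trim63 was 8.97 to 9.06, inside the range of water gavage. Corn oil hearts of another extraction campaign, 9 over 1, 3 and 5 d, had Pdk4 levels of 11.96 to 12.77 and Angptl4 levels of 5.96 to 9.96. No comparison was made with these hearts, and the cause of their levels was not tested.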
